A study of Mus musculus with 5 samples.

Results

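Trp63, Sox2 and Pitx1 are the 3 transcription factors examined here, among 21947 genes, in chemotherapy-treated mouse colon tumors that contain a squamous cell population. The members were taken by name, and their raw counts of unique molecular identifiers (UMIs, each standing for 1 captured RNA molecule) were read in every cell that had at least 500 genes and at most 15% mitochondrial counts. That left 7396 cells from 4 treated libraries. Of these, 1092 were squamous-like and 2424 were columnar-like by their other genes. The members were kept out of the clustering and of the naming of clusters.

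Tumors were raised in wild type (WT) mice with azoxymethane (AOM, a carcinogen, 10 mg/kg given 2 times) and dextran sodium sulfate (DSS, which injures the colon, 2% in 2 courses), so every treated group shares AOM/DSS induction. All 4 groups then received Irinotecan and Fluorouracil (5-FU), 50 mg/kg of each, with 5 days of rest, for 3 cycles. The labels give day 1 (replicates 1 and 2, the early libraries) and day 3 and day 6 (1 library each, the late libraries), and whether days count from the start or the end of treatment differs within the sources. Strain was C57BL/6J or a mixed C57BL/6J and 129 background, with mice of 6 to 12 weeks at the start, and the study calls its replicates different mice. An untreated WT library of normal colon, dissociated to keep fibroblasts, was used only for the closing observations. No untreated tumor is among these libraries, and tumors from Apc-mutant mice were not analysed here.

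Stratified squamous epithelium, such as skin, esophagus and anal canal, keeps dividing cells on a basement membrane and moves their daughters upward as suprabasal cells that change keratins and lose contact with the matrix. Trp63 encodes p63, the p53 family member required for stratified epithelia. Sox2 encodes an SRY-box factor of stem cells and of foregut-derived squamous epithelium, and Pitx1 a paired-type homeobox factor best known from hindlimb and pituitary. The columnar lining of the colon is instead specified by factors such as Cdx2 and Hnf4a.

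Trp63 lies on GRCm38 chr16:25683763-25892102 (plus strand), Sox2 on chr3:34650405-34652461 (plus strand) and Pitx1 on chr13:55825051-55836192 (minus strand), by GENCODE M21. Sox2 sits inside the long noncoding gene Sox2ot on the same strand, but 0 of 18 annotated Sox2ot transcripts have an exon over it. Trp63 has 8 annotated transcripts, 4 from an upstream start that encode TAp63 (with the transactivation domain) and 4 from an internal start that encode the shorter ΔNp63, the form known from basal cells. Their coding sequences begin as follows, 60 bases each, read from GENCODE M21 transcripts, and are shown because the 2 forms part only at this end, in capitals where a base belongs to the named form alone.
TAp63 (Trp63-208): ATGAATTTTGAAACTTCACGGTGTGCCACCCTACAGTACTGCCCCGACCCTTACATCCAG
ΔNp63 (Trp63-201): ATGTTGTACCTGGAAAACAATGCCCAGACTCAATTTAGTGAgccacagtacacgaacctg
The first 323 coding bases of TAp63 and the first 41 of ΔNp63 are their own, and the remaining 1717 are identical. Both of these transcripts end in the same last exon, chr16:25889008-25892102. The libraries were primed from the 3′ end of the RNA and counted per gene, so each Trp63 value below is the sum over forms.

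The treated libraries totalled 5132360 to 16904947 UMIs, with medians of 2903 to 3601 UMIs per kept cell. By the labels, replicate 1 of day 1 shares a single index structure with day 3, and replicate 2 a dual index structure with day 6. The squamous-like clusters followed this structure almost fully. In 1 of them were 41 cells of day 1 replicate 1, 273 of day 3 and 0 of the dual index libraries. Each of the others held 0 day 3 cells and at most 5 of day 1 replicate 1. Between 34 and 106 kept cells per treated library carried a barcode also kept in another of the 5 libraries. Scrublet, a doublet caller, marked 0 to 6 cells per treated library, too few to be used. Free RNA gives UMIs in cells that do not express a gene, and Krt5 in immune-like cells was its only gauge here. Krt5 was found in 81.2% and 86.9% of immune-like cells in day 3 and day 6 (32 and 482 cells). In the 2 day 1 libraries it was found in 26.2% and 24.7% (130 and 572 cells). The part of free RNA, doublets and misplaced cells in these shares was not tested.

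In the squamous-like cells all 3 members were present in every library, at levels far above those in columnar-like cells. Levels are CPM, the UMIs of the gene in the summed cells scaled to a common total, with exact 95% Poisson intervals that cover counting error only. They are compared within a gene and not between genes, since capture differs between transcripts. This contrast is a description with no test, because the genes were picked as squamous factors and the classes come from the same cells.

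Trp63 in squamous-like cells was 512 CPM in day 1 replicate 1 (47 cells, 181 UMIs), 259 in day 1 replicate 2 (184 cells, 266 UMIs), 126 in day 3 (273 cells, 144 UMIs) and 439 in day 6 (588 cells, 1914 UMIs). The mean was 334 ± 175 CPM (SD, n = 4 libraries), and day 3 was the lowest of the 4. In columnar-like cells Trp63 was 9.72, 0.858, 11.8 and 9.20 CPM in the same order. No columnar-like value came near a squamous-like one, and the fold between the classes was 52.7, 302, 10.7 and 47.8.

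Sox2 in squamous-like cells was 147 CPM in day 1 replicate 1, 73.1 in day 1 replicate 2, 103 in day 3 and 214 in day 6, a mean of 134 ± 61.0 (SD, n = 4). The highest library was day 6, with 930 UMIs. In columnar-like cells it was 2.91, 1.00, 10.4 and 7.85 CPM, folds of 50.5, 73.1, 9.93 and 27.2. Sox2ot, the overlapping gene, stayed between 5.25 and 8.49 CPM in squamous-like cells, in every library below the Sox2 level.

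Pitx1 in squamous-like cells was 529 CPM in day 1 replicate 1, 306 in day 1 replicate 2, 441 in day 3 and 397 in day 6, a mean of 418 ± 92.9 (SD, n = 4). Its spread over libraries was the smallest of the 3 relative to its mean. Columnar-like cells gave 8.74, 3.00, 42.8 and 18.8 CPM, folds of 60.5, 102, 10.3 and 21.1. For each of the 3 genes the fold was lowest in day 3, at close to 10. Of the day 3 columnar-like cells, 396 came from 1 cluster near the naming limit, with squamous markers at log2 0.388 (limit 0.4). It held Trp63 at 19.1, Sox2 at 17.9 and Pitx1 at 82.3 CPM, the highest of the columnar-like clusters. At the finer clustering 373 day 3 cells with similar leading genes stayed unnamed.

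**Figure D1:**
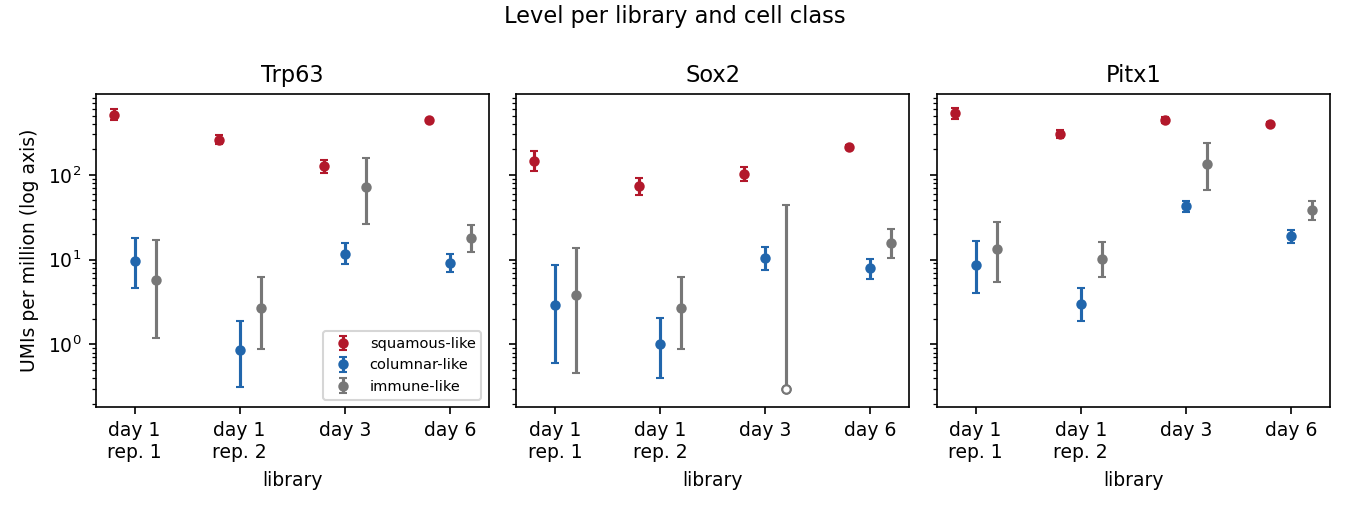
CPM (log axis) of Trp63, Sox2 and Pitx1 in the squamous-like, columnar-like and immune-like cells of each treated library, as points with exact 95% Poisson intervals; the open point is a count of 0, drawn at the foot of the axis. All squamous-like points lie above the columnar-like points of the same library, and the columnar-like points of day 3 are the highest for every gene.

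The columnar-like level of each member was mostly below that of the immune-like cells of the same library, which should lack all 3. Immune-like cells (neutrophil-like, macrophage-like, T cell-like and plasma-like clusters) held Trp63 at 5.75, 2.69, 72.5 and 18.2 CPM, Sox2 at 3.84, 2.69, 0 and 15.9 CPM, and Pitx1 at 13.4, 10.2, 133 and 38.2 CPM, in the order day 1 replicates 1 and 2, day 3 and day 6. The 6 Trp63 UMIs of day 3 immune-like cells came from 1 cell, and the 0 Sox2 UMIs there still allow 44.6 CPM. In 10 of the 12 pairs of gene and library the columnar-like level was below the immune-like one, the exceptions being Trp63 in day 1 replicate 1 and Sox2 in day 3. Expressed as a share of the squamous-like level, the columnar-like level of day 3 was 9.36% for Trp63, 10.1% for Sox2 and 9.70% for Pitx1, next to a median of 9.11% over the 11 squamous naming markers counted there (Krt5 8.79%, Krt14 8.40%). In day 1 replicate 1 the shares were 1.90%, 1.98% and 1.65% beside a marker median of 2.49%, in day 1 replicate 2 they were 0.331%, 1.37% and 0.981% beside 1.67%, and in day 6 they were 2.09%, 3.68% and 4.74% beside 6.01%. Trp63 in day 1 replicate 2 and in day 6 was below the range of the naming markers (0.736% to 87.2% and 3.47% to 12.2%), and the other shares were inside the range of their library. Levels at or below the immune-like ones are not read as expression. Immune-like cells had fewer UMIs per cell (medians below), so this comparison does not show absence either.

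Few columnar-like cells had any UMI of a member. Trp63 was found in 9 of 101, 6 of 703, 41 of 907 and 53 of 713 columnar-like cells of day 1 replicates 1 and 2, day 3 and day 6. After thinning each cell to 1000 UMIs, it was found in 1.07% of columnar-like cells and 0.746% of immune-like cells, against 25.4% of squamous-like ones. For Sox2 the thinned shares were 0.909%, 0.995% and 14.5%, and for Pitx1 3.47%, 2.82% and 32.3%, in the same order. Unthinned, the shares of cells with a UMI were 4.50%, 2.38% and 63.6% for Trp63, 4.25%, 2.71% and 49.7% for Sox2, and 11.7%, 6.41% and 76.7% for Pitx1, at median depths of 4993.5, 2446.5 and 5268 UMIs. Krt5 and Krt14 together stood at 398 CPM in the columnar-like cells with a Trp63 UMI and at 276 in those without in day 1 replicate 1, at 295 and 240.2 in day 1 replicate 2, at 1733 and 687 in day 3, and at 1355 and 829 in day 6. For Sox2 the same comparison gave 765 and 291, 88.9 and 242, 1759 and 697, and 1005 and 873, lower with Sox2 in day 1 replicate 2 alone. For Pitx1 it gave 693 and 267, 242.5 and 240.7, 1305 and 629, and 979 and 854. The part of doublets and free RNA in these cells was not tested.

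Most UMIs of each member lay in the squamous-like cells. Of all Trp63 UMIs in kept cells, 81.2%, 89.9%, 68.2% and 91.2% were there in day 1 replicates 1 and 2, day 3 and day 6. For Pitx1 the shares were 81.3%, 79.1%, 65.0% and 79.0%. For Sox2 they were 57.1%, 59.1%, 65.9% and 83.9%, so that the early libraries kept more of their Sox2 elsewhere, in cells described further on.

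Along the basal to suprabasal axis Trp63 fell, while Sox2 and Pitx1 did not pass the test. Squamous-like cells of each library were ranked by a score, the mean log-normalised level of 13 suprabasal genes (Krt13, Krt4, Krt1, Krt10 and others) minus that of 10 basal genes (Krt5, Krt14, Col17a1, Itga6 and others), and cut into 3 equal bins, basal, middle and suprabasal. The bins are named by the whole score, and not each of its genes followed it. Krt14 was higher in the suprabasal than in the basal bin of both day 1 libraries (7175 to 11108 and 13988 to 23829 CPM) and lower in day 3 and day 6 (4821 to 3825 and 10415 to 7493). Krt5 went from 5277 to 5729, from 7126 to 5159, from 4518 to 4739 and from 6536 to 6481 CPM in the same order of libraries. Counts summed over the basal and the suprabasal cells of each library were compared with edgeR's quasi-likelihood test, with library as a block and Benjamini-Hochberg adjustment over 6203 genes. Of these, 573 genes (9.24%) had an adjusted p under 0.05, 351 of them higher (5.66%) and 222 lower (3.58%) in suprabasal cells. Genes of the score were not taken out of these counts, and the cut into bins favours their direction.

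Trp63 was 494 CPM in the basal and 320 in the suprabasal cells of day 1 replicate 1, 266 and 141 in day 1 replicate 2, 143 and 80.2 in day 3, and 666 and 241 in day 6. The suprabasal value was lower in 4 of 4 libraries. The log2 fold change was -0.89 ± 0.19 (SE, 95% interval -1.29 to -0.48, edgeR adjusted p = 0.00827). The fall was not even over the axis, since the middle bin stood at 662, 404, 154 and 470 CPM, above the basal bin in the 3 libraries other than day 6. The call was lost without day 6 (-0.70, adjusted p = 0.118), without the library block (-0.90, adjusted p = 0.824) and with cells thinned to 1000 UMIs (-0.34, adjusted p = 0.657, over 1405 genes).

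Sox2 went from 179 to 134 CPM in day 1 replicate 1, from 54.2 to 73.3 in day 1 replicate 2, from 99.4 to 126 in day 3 and from 213.3 to 213 in day 6. Libraries differed in direction, with 2 higher and 2 lower in suprabasal cells. The log2 fold change was 0.25 ± 0.21 (SE, 95% interval -0.19 to 0.69, edgeR adjusted p = 0.548), an interval that leaves room for changes of either direction.

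Pitx1 went from 519 to 475 CPM, from 341 to 243, from 446 to 438 and from 398 to 365 in the same order of libraries. The suprabasal value was lower in 4 of 4 libraries, most in day 1 replicate 2 (log2 -0.47), and the pooled change did not pass the test. The log2 fold change was -0.06 ± 0.17 (SE, 95% interval -0.42 to 0.31, edgeR adjusted p = 0.904). Computed per library on log2(CPM + 10), the change of Sox2 exceeded that of Trp63 by 0.99 ± 0.53 (SD, n = 4) and that of Pitx1 exceeded Trp63 by 0.73 ± 0.41, both in 4 of 4 libraries. The exact two-sided sign-flip permutation test gave p = 0.125 for each (adjusted 0.188 over 3 comparisons), the smallest that 4 libraries allow, so the difference between members could not reach 0.05 by this test.

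**Figure D2:**
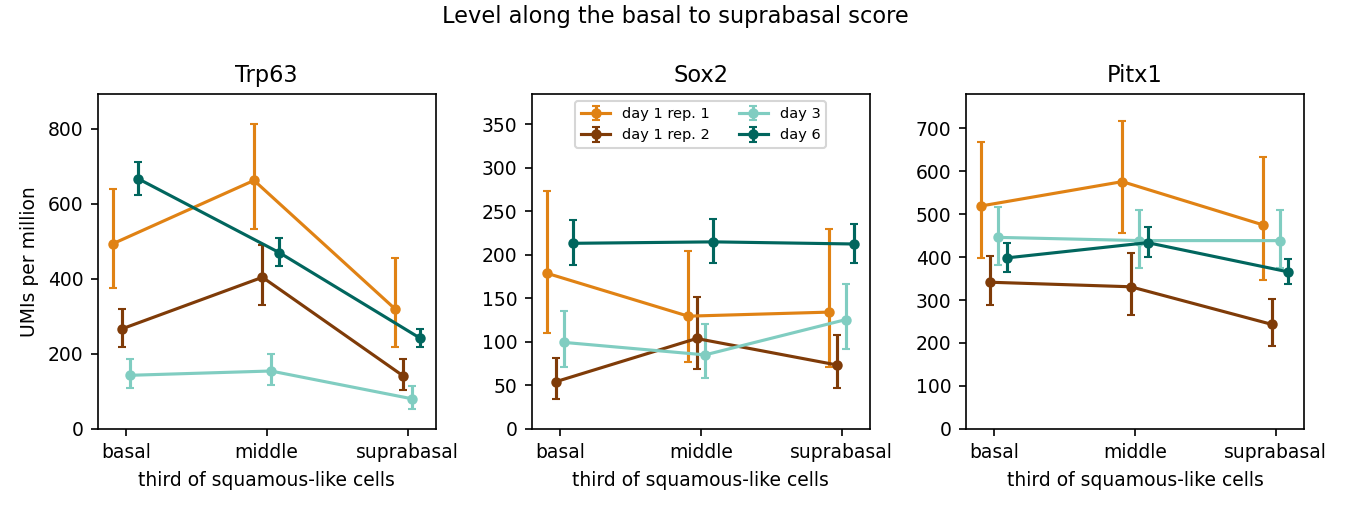
CPM of Trp63, Sox2 and Pitx1 in the basal, middle and suprabasal bin of the squamous-like cells of each treated library, as points with exact 95% Poisson intervals joined by lines. Trp63 ends lower than it starts in all 4 libraries, while the lines of Sox2 cross and those of Pitx1 stay nearly level.

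Day 6 had enough squamous-like cells for a finer cut, into 6 steps of 98 cells. Trp63 was 660, 672, 599, 348, 278 and 210 CPM from the most basal to the most suprabasal step, with a drop between steps 3 and 4 whose intervals (542 to 662 and 306 to 394) do not overlap. Sox2 was 196, 231, 209, 220, 233 and 195 CPM, and Pitx1 382, 415, 457, 412, 381 and 352 CPM, with overlapping intervals at neighbouring steps. A further 155 cells, joined to the squamous-like class only at the finer clustering and led by Calm4, Krt10 and Krt1 (keratins and a calmodulin-like protein of suprabasal skin), held Trp63 at 116 CPM (30 UMIs, 78.0 to 165), Sox2 at 200.3 and Pitx1 at 351. In those cells Trp63 was lower than in any of the 6 steps, Sox2 was within the range of the steps, and Pitx1 was close to its lowest step. Their median score was -0.406, between those of steps 4 (-0.740) and 5 (-0.319), so by score they do not lie beyond step 6. Their median depth was 1438 UMIs, and these values are from 1 library with no replicate.

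**Figure D3:**
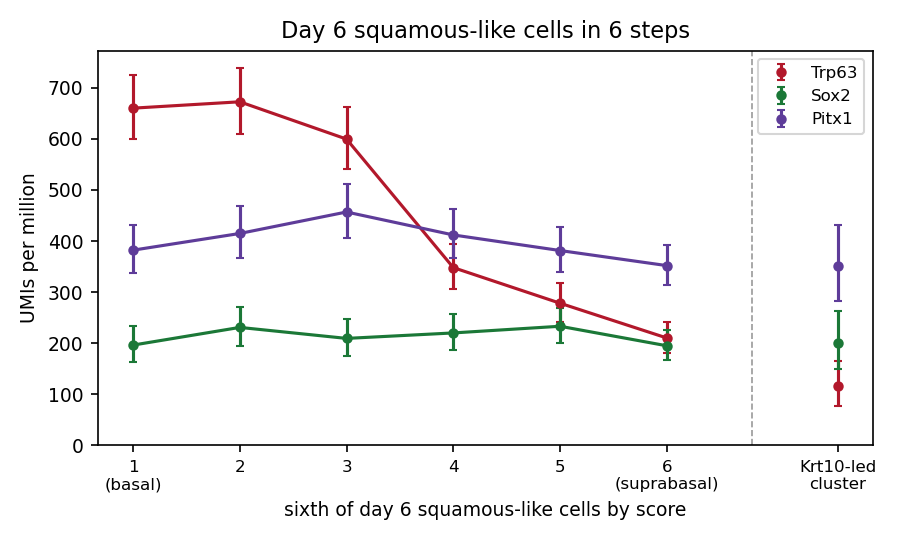
CPM of the 3 members in 6 steps of 98 day 6 squamous-like cells from basal (1) to suprabasal (6). Right of the dashed line are the 155 cells led by Calm4, Krt10 and Krt1, whose median score lies between steps 4 and 5. Bars are exact 95% Poisson intervals. Trp63 drops from 660 to 210, whereas Sox2 stays between 195 and 233 and Pitx1 between 352 and 457.

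The other factors of stratified epithelium were described from a list. Of 32 listed, 22 were tested along the axis, and 8 rose and 0 fell in suprabasal cells, with a median log2 fold change of 0.48 over the list beside -0.01 over all genes. Background was 5.66% higher and 3.58% lower. Zfp750, a p63-dependent factor of terminal epidermal differentiation, rose most (log2 fold change 3.04 ± 0.34 SE, edgeR adjusted p = 6.63e-05). Grhl3, needed for the skin barrier, rose by 2.72 ± 0.35 (adjusted p = 0.000204) and Hopx, an atypical homeodomain protein, by 2.46 ± 0.41 (adjusted p = 0.00128). Elf3 (1.64), Klf4 (1.12), Ovol1 (1.12) and Ehf (0.76), all known from differentiating epithelia, also rose. Trp63 therefore had the opposite sign to each factor of the list that passed.

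Known targets of p63 moved in both directions. Of 20 listed, 13 were tested along the axis, and 4 rose and 2 fell. Those that rose included Aqp3, a water and glycerol channel (1.95 ± 0.29 SE, edgeR adjusted p = 0.000622), Runx1 (1.06) and the desmosomal Perp (1.01). The 2 that fell were Itga3, the laminin-binding integrin subunit of basal cells (-1.71 ± 0.21, adjusted p = 0.000113), and the growth factor receptor Fgfr2 (-1.11 ± 0.28, adjusted p = 0.0217).

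Intestinal factors gave no call along the axis. Of 20 listed, 9 were tested, with 0 called in either direction and a median log2 fold change of 0.10. Hnf4a, for example, had 0.22 ± 0.28 and Cdx1 0.10 ± 0.23, and Cdx2 was too low to be tested. Among the neighbours and partners looked at by value, Sox9 (-0.48) and Trp53 (-0.58) did not pass, and Trp73, the other p53 family member, was too low.

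Early and late libraries did not differ detectably in the members. Squamous-like sums of day 3 and day 6 were compared with those of day 1 replicates 1 and 2 by edgeR over 9744 genes. With 0 genes (0%) at an adjusted p under 0.05 and 388 at an unadjusted p under 0.05 (DESeq2 called 17), the test had little reach. On simulated counts of this design, in which libraries differed only in depth, it recovered 4% of 4-fold changes. In the design of the axis test it recovered 100% of them. Changes were planted in better-counted genes alone, so these shares do not carry over to genes with few counts.

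Trp63 had a log2 fold change of -0.30 ± 0.66 (SE, 95% interval -1.78 to 1.17, edgeR adjusted p = 0.9998), Sox2 0.70 ± 0.55 (-0.54 to 1.93) and Pitx1 0.17 ± 0.55 (-1.06 to 1.40), the latter 2 with the same adjusted p. The groups overlapped for each gene. Within the single index libraries the late level was 0.246 times the early one for Trp63, 0.701 for Sox2 and 0.833 for Pitx1, and within the dual index libraries it was 1.69, 2.92 and 1.30 times. All 3 genes were thus lower on day 3 and higher on day 6 than the day 1 library of the same structure, and day, mouse and structure cannot be told apart in these pairs. Trp63 changed sign without day 1 replicate 1 (0.19) and without day 3 (0.31), and reached -1.39 without day 6 (adjusted p = 0.411). Of the lists, 28 stratified-epithelium factors, 17 p63 targets and 15 intestinal factors were tested here and none passed, although 13 of the 15 intestinal factors had a positive log2 fold change (median 0.65, all genes 0.04). The late libraries were also those with Krt5 in the largest shares of immune-like cells. The part of free RNA in these values was not tested.

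The 3 members were often found in the same squamous-like cell. All 3 were detected in 15 of 47 cells (31.9%) in day 1 replicate 1, 27 of 184 (14.7%) in day 1 replicate 2, 23 of 273 (8.42%) in day 3 and 320 of 588 (54.4%) in day 6. None of them was detected in 7, 51, 43 and 23 cells. Day 6, with the most UMIs per cell beside day 1 replicate 1 (medians 6560.5 and 6544), had the highest share with all 3.

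Pairs were frequent too. Trp63 and Pitx1 came together in 28, 60, 76 and 428 cells, Sox2 and Pitx1 in 15, 36, 61 and 358, and Trp63 and Sox2 in 17, 30, 30 and 354. Cells with Sox2 alone were rare, 0, 4, 11 and 12, whereas Pitx1 alone was seen in 6, 42, 88 and 25 cells. Each count depends on how much of a cell's RNA was read. In the shallowest of 5 depth bins (median 1557 to 3169.5 UMIs) all 3 were found in 0%, 0%, 0% and 24.6%, and in the deepest bin in 55.6%, 61.1%, 16.7% and 76.9%.

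Co-detection matched what the single detection shares give at equal depth. The product of the 3 shares within the 5 depth bins gives 14.8, 25.1, 24.2 and 302 cells with all 3, against the 15, 27, 23 and 320 observed, ratios of 1.01, 1.07, 0.951 and 1.06. Without regard to depth the products were 8.90, 11.0, 19.9 and 281. Over pairs, the ratios at equal depth lay between 0.971 and 1.09. Bins near 0% or 100% leave such ratios little room to depart from 1. In day 1 replicate 1 Sox2 was found in 0% of the shallowest bin, and Trp63 and Pitx1 in 100% of the deepest. In the deepest bin of day 6 the shares were 89.7% for Trp63, 88.9% for Sox2 and 95.7% for Pitx1. No test was made over cells. Thinned to 1000 UMIs per cell, all 3 were found together in 1, 0, 0 and 18 cells (products 0.789, 0.234, 1.46 and 13.0), too few for a ratio in 3 of the libraries.

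**Figure D4:**
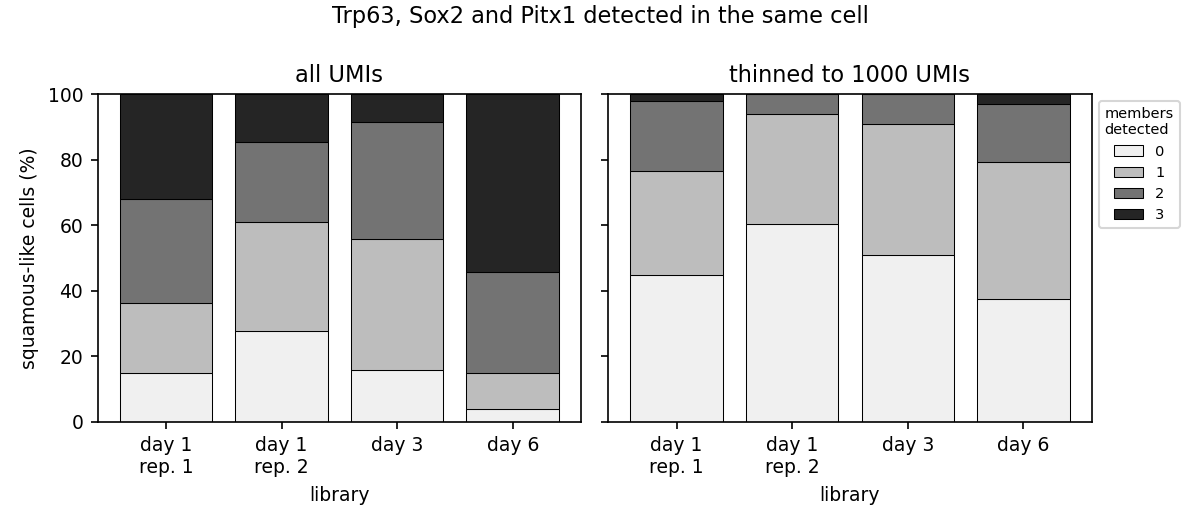
Percent of squamous-like cells with 0, 1, 2 or 3 of the members detected, as stacked bars for each treated library, with all UMIs (left) and after thinning each cell to 1000 UMIs (right). The black segments, cells with all 3, run from 8.42% in day 3 to 54.4% in day 6 on the left and are at most 3.09% on the right.

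Along the axis, cells with none of the 3 were a larger share of suprabasal than of basal cells in 4 of 4 libraries: 26.7% against 6.25% in day 1 replicate 1, 41.0% against 19.4% in day 1 replicate 2, 19.8% against 9.89% in day 3 and 6.12% against 2.04% in day 6. The share with all 3 was lower in suprabasal cells in each library too. It was 26.7% against 31.25%, 14.8% against 16.1%, 6.59% against 7.69% and 50.5% against 56.6%, in the same order. These shares were not matched for depth. Median UMIs of suprabasal and basal cells were 4479 and 6556.5, 2045 and 4524, 3135 and 3407, and 8210 and 5866, in the same order of libraries. In day 6 all 3 were found in 111, 110 and 99 of 196 basal, middle and suprabasal cells. In day 3 the counts with all 3 were 7, 10 and 6 of 91, in day 1 replicate 2 they were 10 of 62, 8 of 61 and 9 of 61, and in day 1 replicate 1 they were 5 of 16, 6 of 16 and 4 of 15. Among columnar-like cells all 3 were found in 0, 0, 5 and 3 cells, where the products give 0.0100, 0.00163, 0.501 and 1.12. The excess was in the 2 libraries with Krt5 in the largest shares of immune-like cells, and its cause was not tested.

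Outside the squamous-like class, cells with at least 3 UMIs of a member were rare and differed between members. For Trp63 they were 348 of 1092 squamous-like cells and 6 of 2424 columnar-like cells, the latter with a median depth of 19935 UMIs and Krt5 and Krt14 at 3146 CPM against 582 in the remaining columnar-like cells. For Sox2 they were 160 squamous-like cells and 1 columnar-like cell. For Pitx1 they were 416 squamous-like and 14 columnar-like cells, and 5 of 138 fibroblast-like cells. Those 5 carried Krt5 and Krt14 at 4133 CPM against 778 in the other fibroblast-like cells, and 2 of them had a Trp63 UMI.

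Sox2 stood apart in 1 unnamed cluster of 412 cells, 378 of them from the day 1 libraries. The cluster had a high median depth of 13283 UMIs, and its 10 leading genes included the WNT pathway genes Wif1 and Nkd1 and the homeobox gene Prox1, with columnar markers above (log2 0.44) and squamous markers below (log2 -1.03) their mean level in non-epithelial clusters. It met the columnar marker limit of 0.4 and stayed unnamed because its leading genes held a marker of another class (Prox1, of lymphatic endothelium) and no columnar marker. At the finer clustering 165 cells led by Wif1 and Spock2 were called columnar-like, with Sox2 at 14.2 CPM. Counting the whole cluster as columnar-like, an alternative chosen after seeing the data, would put columnar-like Sox2 at 9.84 and 3.94 CPM in the day 1 replicates, above the immune-like 3.84 and 2.69, with Trp63 at 9.50 and 1.22 and Pitx1 at 5.43 and 2.90. It held 64 Sox2 UMIs (10.9 CPM, 8.37 to 13.9), of which 47 lay in just 8 cells, 4 from each day 1 library. The cell with most had 11. None of these 8 cells had a UMI of Trp63 or of Pitx1, and Krt5 with Krt14 stood at 149 CPM in them against 191 in the rest of the cluster. In the same cluster Trp63 was at 4.42 CPM, with 12 of its 26 UMIs in 1 cell, and Pitx1 at 4.25 CPM. By library, Sox2 was 13.6 and 9.52 CPM there in the day 1 replicates, higher than the 2.91 and 1.00 of columnar-like cells. This cluster, which was singled out after its values were seen, accounts for most of the Sox2 found outside squamous-like cells in the early libraries.

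**Figure D5:**
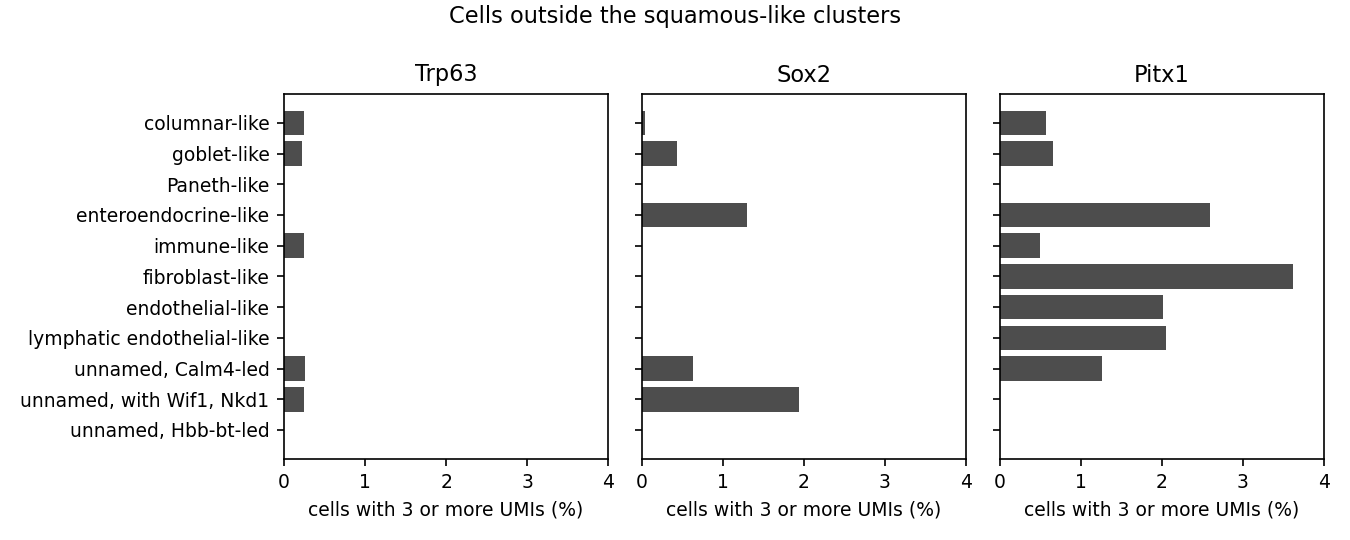
Percent of cells with 3 or more UMIs of Trp63, Sox2 or Pitx1 in each class outside the squamous-like clusters, over the 4 treated libraries. Sox2 has its longest bar in the unnamed cluster with Wif1 and Nkd1 (8 of 412 cells), and Pitx1 in fibroblast-like cells (5 of 138).

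Pitx1 was also present in fibroblast-like cells, at 122 CPM (6 UMIs), 33.7 (8), 138 (15) and 224 (36) in day 1 replicates 1 and 2, day 3 and day 6. These values were above the immune-like ones in 4 of 4 libraries, with overlapping intervals in day 1 replicate 2 and day 3, whereas Trp63 gave 3 UMIs and Sox2 0 in the same 138 cells, which for Sox2 allows 6.63 CPM. Goblet-like, Paneth-like, enteroendocrine-like and endothelial-like cells gave pooled levels of 4.49 to 10.7 CPM for Trp63, 0 to 12.9 for Sox2 and 9.60 to 44.4 for Pitx1, beside 10.8, 8.16 and 24.5 in pooled immune-like cells. Endothelial-like cells, at 12.9 for Sox2 and 44.4 for Pitx1, were above the immune-like level for both, with intervals apart for Pitx1 alone. In the endothelial and the lymphatic endothelial cluster, 3 cells each held 11 of 34 and 15 of 28 Pitx1 UMIs. Krt5 and Krt14 stood at 8766 and 12478 CPM in those cells, against 739 and 966 in the rest. In day 3, 8 enteroendocrine-like cells held 3 Sox2 UMIs, all in 1 cell, and 7 Pitx1 UMIs, all in 2 cells (75.0 and 175 CPM). Krt5 and Krt14 were at 3976 and 3934 CPM there, against 643 and 609 in the other enteroendocrine-like cells. The part of doublets and free RNA was not tested. A shallow unnamed cluster of 788 day 6 cells (median 1297 UMIs) that carried squamous and columnar markers together held Trp63 at 51.1, Sox2 at 64.0 and Pitx1 at 145 CPM, between the 2 epithelial classes. By pooled level the squamous-like cells came first and this mixed cluster next for all 3 genes, with intervals apart for each gene. For Pitx1 the fibroblast-like cells followed (117 CPM, 90.2 to 149), and their interval overlaps that of the mixed cluster (125 to 168). Calm4 and Krt10 were among the leading genes of the mixed cluster, as in the 155 day 6 cells described above, and their overlap was not counted. At the finer clustering 598 unnamed day 6 cells shared its leading genes Pigr and Hist1h2ap. They held Trp63 at 38.0, Sox2 at 29.9 and Pitx1 at 97.8 CPM (78.1 to 121), so the Pitx1 rank depends on the resolution. The mixed cluster held 63 Trp63, 79 Sox2 and 179 Pitx1 UMIs. The 155 cells held 30, 52 and 91, and the 598 cells 33, 26 and 85. The values at the 2 resolutions may thus share UMIs and are not separate observations.

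Genes whose pattern was most like that of a member were ranked by Pearson's r of log2(CPM + 10) over 32 sums of library and cell type, among 13334 genes. Since squamous-like sums drive this r and the points share libraries, it is a description. For Trp63 they were Dsc3 (a desmosomal cadherin and naming marker, r = 0.958), Mab21l3 (0.926), the oxidase maturation factor Duoxa1 (0.920), Aqp3 (0.913) and 4631405K08Rik (0.906), with Sox2 next (0.904). For Sox2 the first was Trp63 itself (0.904), before Popdc3 (0.877), the metalloprotease Adam28 (0.870), Teddm3 (0.860) and Dsc3 (0.857). For Pitx1 they were Krt5 (0.904), the homeobox gene Barx2 (0.881), Wnt4 (0.877), the tropomyosin Tpm2 (0.874) and Krt14 (0.874). Pitx1 correlated with Trp63 at 0.781 and with Sox2 at 0.738. Along the axis Adam28 (1.97) and Teddm3 (2.89) rose by edgeR (adjusted p = 0.000190 and 9.67e-05), the opposite direction to Trp63 and without a call for Sox2.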

How the data were processed

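The authors made inDrop libraries (droplet single-cell RNA-seq), counted UMIs per gene and cell with dropEst on GRCm38, and deposited raw count tables, 1 per library. Kept cells had at least 500 genes and at most 15% mitochondrial counts. The 4 treated libraries entered 1 clustering with no correction for batch (2000 variable genes without the members or list genes, 20 components, Leiden resolution 1; scanpy 1.11.5, leidenalg 0.10.2, igraph 0.11.9, Python 3.11.15), giving 26 clusters, 3 unnamed. A cluster was named where its list's mean log2 fold was at least 1 (prior 20 CPM) with at least 3 markers at 2-fold in 10% of cells, and columnar-like at a mean of at least 0.4 over non-epithelial clusters, with squamous markers below 0.4, no hemoglobin gene leading and no more markers of another class than columnar ones among its 10 leading genes. Summed counts (at least 10 cells) were tested with edgeR 4.0.16 (R 4.3.3), with DESeq2 1.42.0 as an alternative, after filtering low counts. Genes of the axis score were not left out of the axis test or its adjustment, and are not reported as its results. On simulated counts of the axis design 82% of 2-fold changes were recovered over 5800 genes, and of the early and late design 0% over 9243 genes. False calls were 18 of 200 and 2 of 6. The simulated libraries had no differences other than depth and the planted changes. Named were the members, their 5 most alike genes (classes of at least 20 cells, genes of at least 100 UMIs), the genes called in each list and up to 4 examples, apart from some that are not reported here. The members and lists were chosen with earlier results of these data known. Replicates are libraries, and intervals cover counting error only.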

Additional observations from a re-analysis of the deposited data

Results flagged for a closer look

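The 3 signals listed here came from the normal colon library, which enters no comparison above, and exceeded what a count of 0 allows. Pitx1 was at 368 CPM in its fibroblast-like cells (379 UMIs in 366 cells, exact 95% interval 332 to 407). Pitx1 was at 471 CPM in its smooth muscle- and pericyte-like cells (98 cells, 391 to 562). In the columnar-like and immune-like cells of the same library Pitx1 stood at 5.14 and 21.4 CPM. Sox2 was at 224 CPM in its glia-like cells (11 UMIs in 6 of 18 cells, 112 to 400), and at 0 UMIs in the columnar-like cells. These are values of 1 library with no replicate.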

How the results depend on the processing

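Of 149 alternative values 132 kept their side of the threshold or moved by less than the spread between libraries (Trp63 between early and late cells changed sign in 2 of 11 without ever being called), 14 moved, 3 lost a call and 0 reversed a call. The count of genes between early and late cells (0) became 17 with DESeq2, 84 without a filter on low counts and 104 with library structure as a block, and 0 to 208 on leaving out 1 library (34 without day 1 replicate 1, 11 without replicate 2, 208 without day 3, 0 without day 6). The count along the axis (573) became 366 with DESeq2, 1055 without a filter, 93 at 1000 UMIs per cell (1405 genes tested), and 230 to 641 on leaving out 1 library (322 without day 1 replicate 2, 230 without day 6). Without the block on library, which pairs basal and suprabasal cells of the same library, it became 29 and Trp63 -0.90 (edgeR adjusted p = 0.824). Trp63 was -0.34 at 1000 UMIs (0.657) and -0.97 to -0.70 on leaving out 1 library (0.118 without day 6), with edgeR adjusted p from 0.00016 to 0.824 over 14 alternatives. The cause was not tested. Sox2 along the axis was positive in 14 of 14 alternatives and Pitx1 in 2 of 14, and neither passed. At 1000 UMIs cells with all 3 members went from a mean of 27.4% to 1.30%. Their mean ratio to the depth-matched number (1.03) came to 0.664 there, a value set by 2 libraries with 0 such cells and under 2 given, and is no sign of a fall, since summed over libraries 19 cells stood against 15.4 (ratio 1.23). Resolution 2 for the axis, the unnamed cluster added to the columnar-like cells (mean Sox2 8.04 in place of 5.54 CPM) and leaving out each library for the mean levels were chosen after seeing the data.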
